A study of Rattus norvegicus with 6 samples.

Results

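Cxcl12, Cxcl16 and Cx3cl1 encode 3 chemokines, and Cxcr4, Ackr3, Cxcr6 and Cx3cr1 encode the 4 receptors that bind them. All rows of the gene table that carry one of these 7 names were taken, 1 row for each name, out of 30957 genes. The RNA came from adult male Sprague Dawley rats, in 3 sciatic nerves that were crushed and 3 contralateral nerves that were left intact. Per the methods of the study, the proximal stumps were taken 4 days postinjury (dpi), whereas the labels give no time point. The control nerves came from the uninjured side of injured animals, so both groups came from animals that carried a lesion, and no nerve of an unoperated rat entered the comparison. The labels do not say which crushed and intact nerves belonged to one rat. The methods describe TRIzol extraction, removal of rRNA and treatment with RNase R, which breaks down linear RNA, while the labels name a column kit for total RNA and no RNase R. The side of the lesion also differs between the sources, being the right in the design text and the left in the methods. The genes were chosen on the differential calls between crushed and intact nerves in these same libraries, so their values in that contrast are given as a description, without a test.

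Chemokines are small secreted proteins that direct migrating cells through receptors coupled to G proteins. CXCL12 binds CXCR4, which signals, and ACKR3, which mainly removes the chemokine from the surroundings. CXCL16 and CX3CL1 (fractalkine) are the chemokines made as membrane proteins on a mucin stalk, and both can be cut from the cell surface by the proteases ADAM10 and ADAM17. CXCL16 binds CXCR6, a receptor of T cells and NK cells, and CX3CL1 binds CX3CR1, a receptor of monocytes, tissue macrophages and microglia. In peripheral nerve these axes are known for the recruitment of leukocytes and for signals between Schwann cells, neurons and macrophages.

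Between 24844371 and 27139360 reads were counted on genes in each nerve. The smallest level taken as distinguishable from 0, 3 reads, came to between 0.11 and 0.121 per 1000000 counted reads, without normalization. Levels in CPM are the count per 1000000 of the normalized library total. The nerve label was checked against marker genes. The myelin gene Mbp had at most 1 read in any nerve, and the Schwann cell genes Sox10 and S100b at most 1 and 3, although Pmp22 had 821 to 968 and Prx 590 to 690. Mki67, a gene of dividing cells, had 37037 to 43837 reads. The labelled tissue was thus not borne out by its own defining markers in either group, and the libraries are called nerves here as in their labels. Of 14 macrophage and monocyte genes, 6 were at 0 in all nerves, including Ptprc, Adgre1 and C1qa. The 3 tested genes, Cd68, Cd14 and Csf1r, had 29 to 52, 49 to 84 and 18 to 29 reads a nerve. None was called, with adjusted p of 0.732, 0.951 and 0.94 by edgeR's test. The sum over the list was 4.09 to 5.61 CPM in intact and 4.43 to 6.30 CPM in crushed nerves. The T and NK cell list summed to 0.158 to 0.227 CPM in intact and 0.0368 to 0.1995 CPM in crushed nerves. The summed pericyte and smooth muscle list lay lower after crush, with 194.8 to 211.7 CPM in intact and 156.6 to 159.7 CPM in crushed nerves. Most of its reads were on Cspg4, with 4288 to 4798 in intact and 3555 to 3879 in crushed nerves. Of its 4 tested genes, 2 fell, Cspg4 and Pdgfrb (adjusted p = 0.00103 and 0.00106 by edgeR's test). Myh11 and Des did not pass (adjusted p = 0.467 and 0.779). Rgs5 was at 0 in all nerves, and Acta2 had at most 3 reads. The Schwann cell list summed to 68.0 to 72.9 CPM in intact and 65.5 to 65.8 CPM in crushed nerves, and 1 of its 5 tested genes fell. The part of these lists in the results was not tested. The summed ranges of the endothelial, fibroblast, axon and proliferation lists overlapped between the groups, although 2 of the 5 tested genes of the fibroblast list, Col1a1 and Col3a1, fell. Their log2 fold changes were -0.69 (adjusted p = 0.000662) and -1.76 (adjusted p = 0.0268) by edgeR's test. Col3a1 had only 3 to 23 reads a nerve. The other tested genes did not pass, with Pdgfra at 0.19 (adjusted p = 0.166), Thy1 at -0.23 (0.0552) and Slc2a1 at -0.04 (0.791). Dcn, Lum and Col1a2 were at 0 in all nerves. In bulk tissue, fewer cells of a type and less RNA per cell cannot be told apart.

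All 7 genes matched a RefSeq promoter, and those of the 3 ligands are shown because these were the members with enough reads to compare. Each line gives the 250 bases before the start site on the GRCr8 assembly, 5′ to 3′ on the gene's strand, with matches to the searched motifs in capitals (CCGCCC is GGGCGG read on the other strand).
Cxcl12, chr4:152060531-152060780, + strand: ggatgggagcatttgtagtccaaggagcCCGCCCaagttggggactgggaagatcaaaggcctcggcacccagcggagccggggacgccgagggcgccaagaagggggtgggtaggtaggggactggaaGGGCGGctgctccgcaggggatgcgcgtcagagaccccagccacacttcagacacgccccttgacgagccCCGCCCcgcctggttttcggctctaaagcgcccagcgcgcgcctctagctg
Cxcl16, chr10:55669951-55670200, - strand: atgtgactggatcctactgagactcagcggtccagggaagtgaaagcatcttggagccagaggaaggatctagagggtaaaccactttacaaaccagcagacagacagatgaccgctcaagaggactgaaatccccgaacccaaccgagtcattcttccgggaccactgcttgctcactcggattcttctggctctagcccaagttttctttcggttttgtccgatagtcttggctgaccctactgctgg
Cx3cl1, chr19:10242821-10243070, - strand: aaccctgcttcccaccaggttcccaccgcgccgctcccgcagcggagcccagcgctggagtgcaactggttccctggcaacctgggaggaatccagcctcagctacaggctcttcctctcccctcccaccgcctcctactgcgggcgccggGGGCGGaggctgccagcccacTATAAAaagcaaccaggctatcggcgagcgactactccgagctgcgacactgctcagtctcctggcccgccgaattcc
The search covered both strands for the TATA element TATAAA, the GC box GGGCGG, the interferon-response motif of GAAA, 2 further bases and GAAA, the hypoxia-response core ACGTG and the NF-kB consensus. The Cxcl12 window held GGGCGG 3 times, with first bases at -222, -121 and -51 from the start site, and no TATAAA. The Cx3cl1 window held GGGCGG at -99 and TATAAA at -78. The Cxcl16 window held none of the searched motifs, and its GC content was 51.6%, against 67.6% for Cxcl12 and 66.4% for Cx3cl1. Among 27457 rat promoters of the same length, 32.4% held GGGCGG, 13.1% TATAAA, 17.0% ACGTG, 3.52% the NF-kB consensus and 3.29% the interferon-response motif. The last 3 motifs were found in none of the 7 members, which says only that these letters are not in this window.

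The 3 ligands were each about 2-fold or more higher in crushed than in intact nerves, and the 4 receptors had almost no reads in either group. Cxcl12 (ENSRNOG00000013589, chromosome 4, 149261044 to 149273891, Rnor_6.0) had 4717, 5082 and 4805 reads in intact nerves 1, 2 and 3, against 10495, 10556 and 10126 in crushed nerves 1, 2 and 3. These were 191 ± 4.02 CPM in intact nerves and 392 ± 10.4 CPM in crushed nerves (SD, n = 3 each). The lowest crushed nerve was 1.98 times the highest intact nerve, and the groups did not overlap. The log2 fold change (log2FC) was 1.04 with a standard error (SE) of 0.0395. Cxcl12 was the most even of the 3 ligands between replicates, with a coefficient of variation of 2.10% in intact and 2.65% in crushed nerves. The ligands were not compared at equal read depth. Counting error alone came to 1.43% in intact and 0.981% in crushed nerves for Cxcl12, against 8.60% and 5.86% for Cx3cl1.

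Cxcl16 (ENSRNOG00000026647, chromosome 10, 57060007 to 57064600) had 1495, 1559 and 1217 reads in the intact group against 3945, 3805 and 3800 in the crushed group. Its level was 55.8 ± 5.75 CPM in the intact and 145.4 ± 5.82 CPM in the crushed group (SD, n = 3 each), the largest difference of the 3 ligands in log2 terms, at 1.38 (SE 0.0696). Intact nerve 3 was the lowest of all, at 49.1 CPM against 59.1 CPM in both other intact nerves. The lowest crushed nerve was still 2.37 times the highest intact nerve.

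Cx3cl1 (ENSRNOG00000016326, chromosome 19, 10644244 to 10653800) was the scarcest ligand of the 3. It had 158, 140 and 108 reads in the intact group against 310, 300 and 263 in the crushed group, or 5.30 ± 0.942 and 10.97 ± 0.434 CPM (SD, n = 3 each). The log2FC was 1.05 with an SE of 0.125. The groups did not overlap, with a ratio of 1.68 between the lowest crushed and the highest intact nerve, but the intact nerves spread widely, with a coefficient of variation of 17.8%. Without intact nerve 3 the log2FC was 0.93 and fell under the study's limit of 1.

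**Figure D1:**
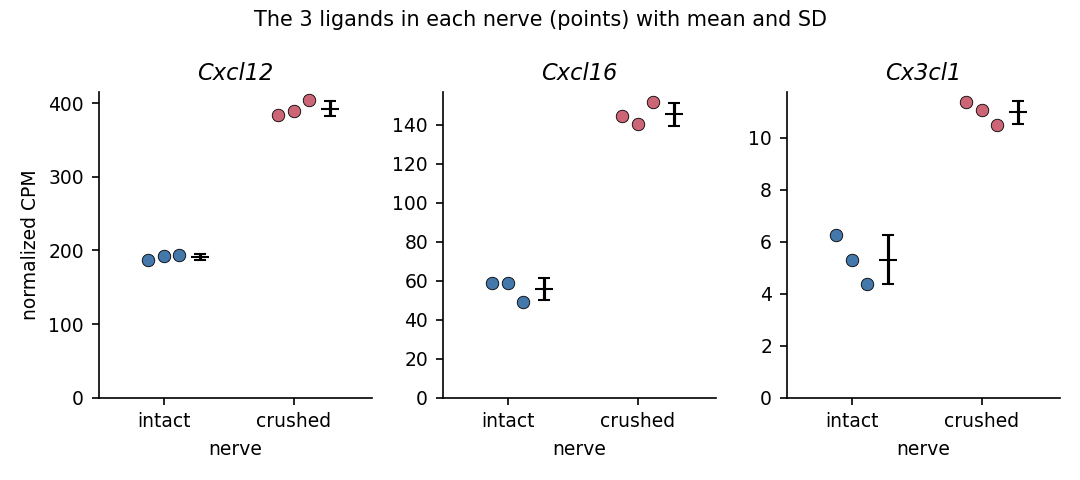
Normalized CPM (vertical axis, from 0, with its own range for each gene) of Cxcl12, Cxcl16 and Cx3cl1 in 3 intact (blue) and 3 crushed (red) nerves, with points for nerves and bars for the mean ± SD. In each panel the 3 crushed nerves lie above the 3 intact nerves, and the intact nerves spread most for Cx3cl1.

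The limits of the study were a log2FC beyond 1 in either direction with p under 0.001. At these limits, with p unadjusted and taken from the quasi-likelihood test of edgeR, 0.218% of the 12393 genes tested were called higher and 0.0646% lower. At an adjusted p under 0.05 the shares were 1.47% higher and 1.65% lower, and 10.8% of genes had each crushed nerve above each intact nerve. Of the 7 members, 3 passed the filter on low counts, and all 3 were called higher by each of these measures. Since the members were chosen on that contrast, nothing is read from this count. Over all genes tested the median log2FC was -0.0017.

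Cxcr4 (ENSRNOG00000003866, chromosome 13, 45314933 to 45318878), the signalling receptor of CXCL12, had 1, 1 and 0 reads in the intact nerves and 0 in each crushed nerve. Ackr3 (ENSRNOG00000019622, chromosome 9, 97355924 to 97367445), its scavenging receptor, was at 0 in all 6 nerves. Cx3cr1 (ENSRNOG00000018509, chromosome 8, 128740756 to 128754514) was also at 0 in all 6 nerves. A count of 0 over a group's 3 nerves allows up to 0.0390 CPM in intact and 0.0379 CPM in crushed nerves. Cxcr6 (ENSRNOG00000006319, chromosome 8, 132869712 to 132870767) had 6, 2 and 2 reads in the intact group against 0, 1 and 2 in the crushed group. The groups overlapped at 2 reads, and no fold change is given at this depth. The intervals and limits in this account cover counting error alone, because reads were pooled over the nerves of a group. They leave out the differences between nerves, and no molecular tags were counted.

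A count of 0 in these libraries need not mean that the RNA was absent. Hprt1, a purine salvage enzyme that nearly every cell uses, was listed at 0 in all nerves in both of its rows, and so was Mif, a cytokine of nearly every tissue. Some other housekeeping genes were abundant in the same libraries, with 15873 to 20198 reads on Gapdh and 126540 to 149037 on Actb. Ppia and Rps18, also housekeeping genes, had only 117 to 152 and 164 to 286 reads a nerve. Differences in receptor level between the groups were not detectable with these counts.

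**Figure D2:**
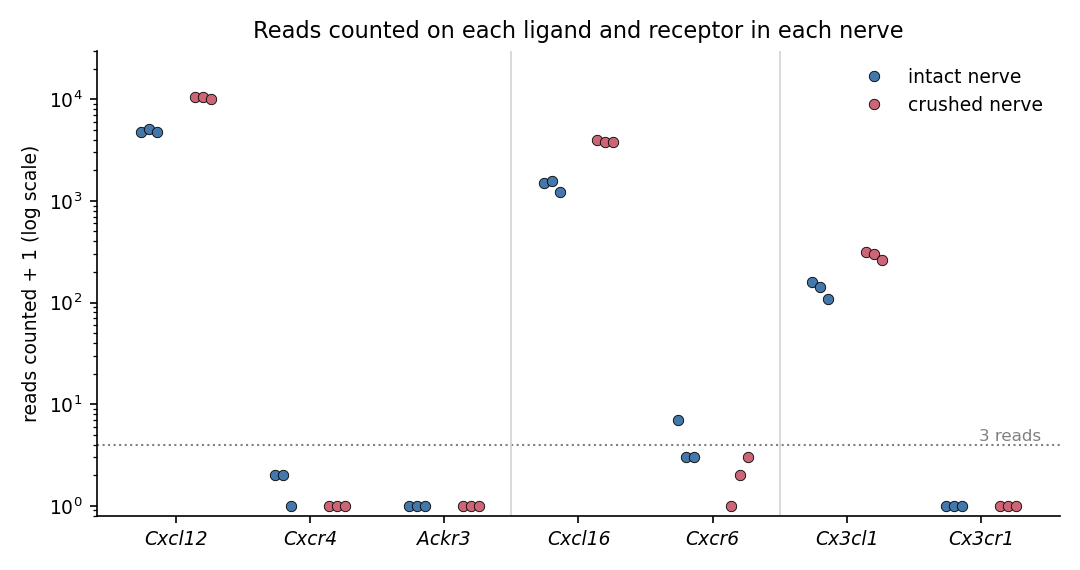
Reads counted plus 1 (vertical log axis) on each ligand and receptor in 3 intact (blue) and 3 crushed (red) nerves, grouped by ligand with its receptors, with a dotted line at 3 reads. The 3 ligands sit between 108 and 10556 reads, whereas only Cxcr6 in intact nerve 1 passes 3 reads among the 4 receptors.

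Setting each ligand beside its receptor in the same nerves, per length and with reads pooled over the group, Cxcl12 exceeded Cxcr4 by a ratio of 4185 in intact nerves (exact 95% interval 1158 to 34560). In crushed nerves, where Cxcr4 had no read, Cxcl12 was at least 5956-fold higher, with 3 reads over the group as the floor. Cxcl16 exceeded Cxcr6 by a ratio of 264.5 in intact nerves (143.7 to 552) and 2385 in crushed nerves (815.8 to 11560). Single nerves weigh on these ratios, since the mean level of Cxcr6 was 0.123 FPKM in intact nerves but 0.0738 FPKM without intact nerve 1, and 0.0370 FPKM in crushed nerves but 0.0175 FPKM without crushed nerve 3. Cxcr6 also lies inside Fyco1, which had 2535 to 2875 reads a nerve, and the origin of its reads is uncertain. For Ackr3 and Cx3cr1 no length could be derived from the table, and the comparison rests on reads, not on reads per length. Cxcl12 had at least 4868 times the reads of Ackr3 in intact and at least 10390 times in crushed nerves. Cx3cl1 had at least 135.3 times the reads of Cx3cr1 in intact and at least 291 times in crushed nerves. These bounds describe counted reads, and with counts of 0 that need not mean absent RNA they do not show which partner was the more abundant.

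Cxcl16 lay above Cxcl12 in each crushed nerve, whereas in intact nerves neither of these ligands was the higher throughout. On the scale of FPKM, which is per length of gene, Cxcl12 was 35.0 ± 0.855 and Cxcl16 32.5 ± 3.26 in intact nerves (SD, n = 3 each), and their ranges overlapped. In crushed nerves Cxcl16 was 85.8 ± 3.49 and Cxcl12 72.8 ± 1.94, without overlap. The ratio of Cxcl16 to Cxcl12 in FPKM was 1.01, 0.976 and 0.806 in intact nerves 1, 2 and 3, against 1.20, 1.15 and 1.19 in crushed nerves 1, 2 and 3. Every crushed nerve thus had a higher ratio than every intact nerve, which largely restates the larger log2FC of Cxcl16. Cx3cl1 was 1.68 ± 0.294 FPKM in intact and 3.53 ± 0.139 FPKM in crushed nerves. The ratio of Cxcl12 to Cx3cl1 overlapped between the groups, at 17.2, 20.9 and 25.7 in the intact and 19.5, 20.3 and 22.2 in the crushed nerves.

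Among all genes with an FPKM above 0 in their group, 16530 in intact and 16561 in crushed nerves, Cxcl12 moved from rank 2784 to rank 1243 and Cxcl16 from rank 2992 to rank 1003. Cx3cl1 lay in the lower part of both lists, at ranks 10727 and 9657.

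Within the chemokine family, 36 ligand genes were in the table, of which 12 had signal in intact and 15 in crushed nerves. Their summed level was 113.4 ± 4.52 FPKM in intact and 284.1 ± 12.1 FPKM in crushed nerves (SD, n = 3 each). Cxcl12, Cxcl16 and Cx3cl1 together held 61.0% ± 0.852 of this sum in intact and 57.1% ± 0.612 in crushed nerves. Cxcl12 and Cxcl16 were the highest ligands in both groups. Cxcl1, a neutrophil chemokine, came next at 21.4 ± 1.56 FPKM in intact and 60.1 ± 5.88 FPKM in crushed nerves, followed by the monocyte chemokine Ccl2 at 13.4 ± 3.12 and 46.4 ± 1.56 FPKM. Cxcl10, a ligand of CXCR3, was 8.25 ± 0.371 and 8.70 ± 0.499 FPKM, and the ranges overlapped. Cx3cl1 stood in sixth place in intact nerves and in the seventh in crushed nerves, where Cxcl3, another neutrophil chemokine, had 5.09 ± 0.174 FPKM against 0.483 ± 0.137 FPKM in intact nerves. Cx3cl1 did not overlap with its neighbours in either order.

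**Figure D3:**
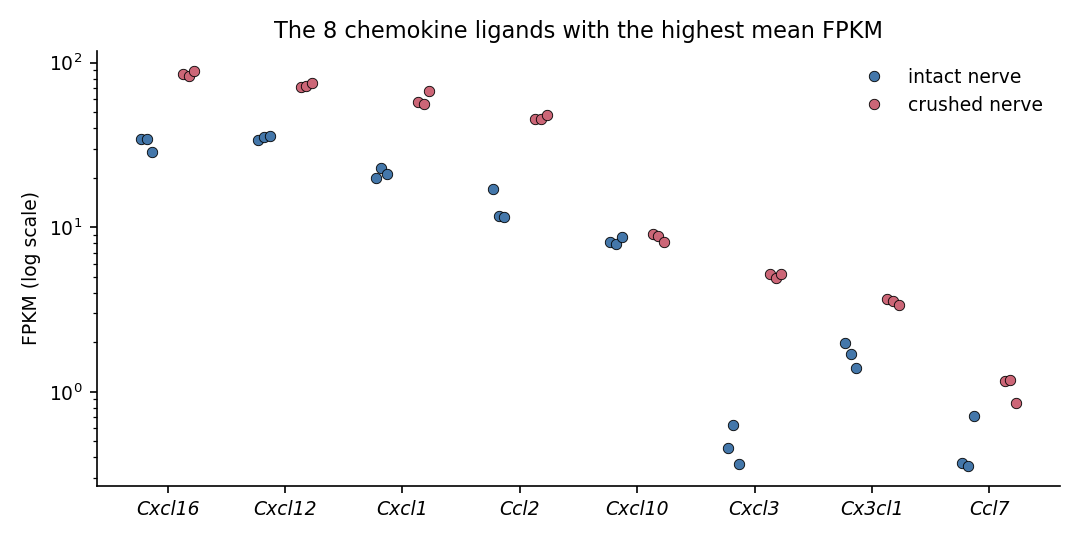
FPKM (vertical log axis) of the 8 chemokine ligands with the highest mean over the 6 nerves, with points for intact (blue) and crushed (red) nerves. Cxcl16 and Cxcl12 overlap in intact nerves and separate in crushed nerves, Cxcl10 overlaps between the groups, and Cx3cl1 lies among the lowest 3.

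Of the 33 other chemokine ligands, 13 had a read and 5 were tested. Ccl2, Cxcl1 and Cxcl3 rose, and Cxcl10 and Ccl7 did not pass. The log2FC of Cxcl3 was 3.36 (SE 0.173, adjusted p = 2.56e-06 by edgeR's quasi-likelihood test, Benjamini-Hochberg adjusted over all genes tested), with 18, 26 and 14 reads in the intact group against 219, 205 and 200 in the crushed group. Those of Ccl2 and Cxcl1 were 1.77 (SE 0.126, adjusted p = 2.33e-05) and 1.48 (SE 0.0824, adjusted p = 3.19e-06). Ccl7, a monocyte chemokine, had a log2FC of 1.15 (SE 0.330, adjusted p = 0.104) and Cxcl10 one of 0.06 (SE 0.0913, adjusted p = 0.788). The median over the 5 was 1.48, against -0.0017 over all genes. The list was written with earlier results of these libraries known, so its count is not independent evidence of a direction.

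Of the 15 other chemokine receptors, 8 were at 0 in all nerves, no nerve had more than 14 reads on any of them, and 1 was tested. This was Cxcr5, a receptor of follicular lymphocytes, with 14, 9 and 10 reads in the intact group against 7, 9 and 10 in the crushed group (log2FC -0.39, adjusted p = 0.644). Ccr2, the receptor of CCL2, and Cxcr2, the receptor of CXCL1 and CXCL3, were among those at 0. Few reads on receptors were found across the family and not for Cxcr4, Ackr3, Cxcr6 and Cx3cr1 alone. Of the other scavenger receptors, Ccrl2 was tested, with 10 to 24 reads a nerve and a log2FC of -0.17 (adjusted p = 0.865). Ackr4 had 5 to 13 reads a nerve, Ackr2 and Gpr182 were at 0, and Ackr1 was not found by name in the table.

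Among 9 proteases that cut these chemokines, 4 were tested and 1, Mmp9, rose. Mmp9, a secreted gelatinase that can clip CXCL12, had 25, 18 and 13 reads in the intact group against 77, 59 and 60 in the crushed group. Its log2FC was 1.74 (SE 0.241, adjusted p = 0.00242). The membrane proteases that release CXCL16 and CX3CL1 were abundant and did not pass. Adam10 was 32.2 FPKM in intact and 33.7 FPKM in crushed nerves (log2FC 0.05, SE 0.0446, adjusted p = 0.661), and Adam17 was 29.8 and 31.4 FPKM (0.06, SE 0.0479, adjusted p = 0.587). The log2FC of Mmp14, a membrane metalloprotease, was 0.10 (adjusted p = 0.367). Dpp4, which clips the end of CXCL12, had 2 to 12 reads a nerve, Mmp2 at most 4 and Ctss at most 2, and the neutrophil proteases Ctsg and Elane were at 0. The median log2FC over the 4 tested was 0.08.

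Of 7 genes for further ligands of these receptors or for proteins that bind the chemokines, 4 were tested and 1, Adm, was lower in crushed nerves. Adm, which encodes adrenomedullin, a peptide also bound by ACKR3, had 293, 262 and 273 reads in the intact group against 208, 240 and 172 in the crushed group. The log2FC was -0.48 (SE 0.113, adjusted p = 0.04998). This call was lost in 9 of the 11 other settings run, with adjusted p between 0.0176 and 0.178, the highest without crushed nerve 1, and with the replicate number as a block the adjusted p was 0.092. Cd164, a sialomucin that associates with CXCR4, had a log2FC of 0.06 (adjusted p = 0.522), Sdc4, a heparan sulfate carrier that binds CXCL12, one of 0.04 (adjusted p = 0.778), and Hmgb1, a nuclear protein that pairs with CXCL12 outside the cell, one of -0.33 (adjusted p = 0.426). Cxcl11, the other chemokine ligand of ACKR3, had 0 reads in the intact group against 4, 1 and 0 in the crushed group. The median over the 4 tested was -0.15.

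Of 22 genes for signalling and desensitisation downstream of the receptors, 14 were tested and 0 were called at an adjusted p under 0.05 by edgeR, DESeq2 or limma, while 3 had an unadjusted p under 0.05. The highest were Gnai2, a G protein subunit, at 181 FPKM over the 6 nerves (log2FC -0.05, adjusted p = 0.691) and Rac1, a small GTPase of cell movement, at 154 FPKM (0.11, adjusted p = 0.220). The log2FCs of the 14 ran from -0.25 to 0.14, with a median of -0.02. The leukocyte genes of this list, Rac2, Dock2, Pik3cg and Rgs1, were at 0 in all nerves, as was Grk3.

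Of the 7 transcription factors and inhibitors that act on these ligand or receptor genes, 4 rose at an adjusted p under 0.05. Nfkbia, the inhibitor of NF-kB and itself one of its target genes, had the largest log2FC, 1.65, with 729 to 844 reads in the intact and 2506 to 2689 in the crushed nerves (adjusted p = 1.40e-07). Irf1, a factor of the interferon response, had a log2FC of 0.42 (SE 0.0389, adjusted p = 0.000158). Nfkb1, an NF-kB subunit, had one of 0.33 (SE 0.0593, adjusted p = 0.0125), a call that was lost without crushed nerve 1 (adjusted p = 0.0598) or crushed nerve 2 (adjusted p = 0.0707), over a range of 8.18e-05 to 0.0707 in all settings. Rela, the partner subunit of NF-kB, did not pass, at 0.11 (adjusted p = 0.362), and neither did the hypoxia factors Hif1a at 0.04 (adjusted p = 0.685) and Epas1 at 0.05 (adjusted p = 0.941).

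Taking all 7 lists with each gene once, 96 genes were looked up and 36 were tested. At the fold limit 5 were higher and 0 lower, and at an adjusted p under 0.05 alone 8 were higher and 1 lower. Over all genes tested the shares were 0.218% higher and 0.0646% lower at the fold limit and 1.47% higher and 1.65% lower at the adjusted limit, and the lists were written with earlier results known.

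**Figure D4:**
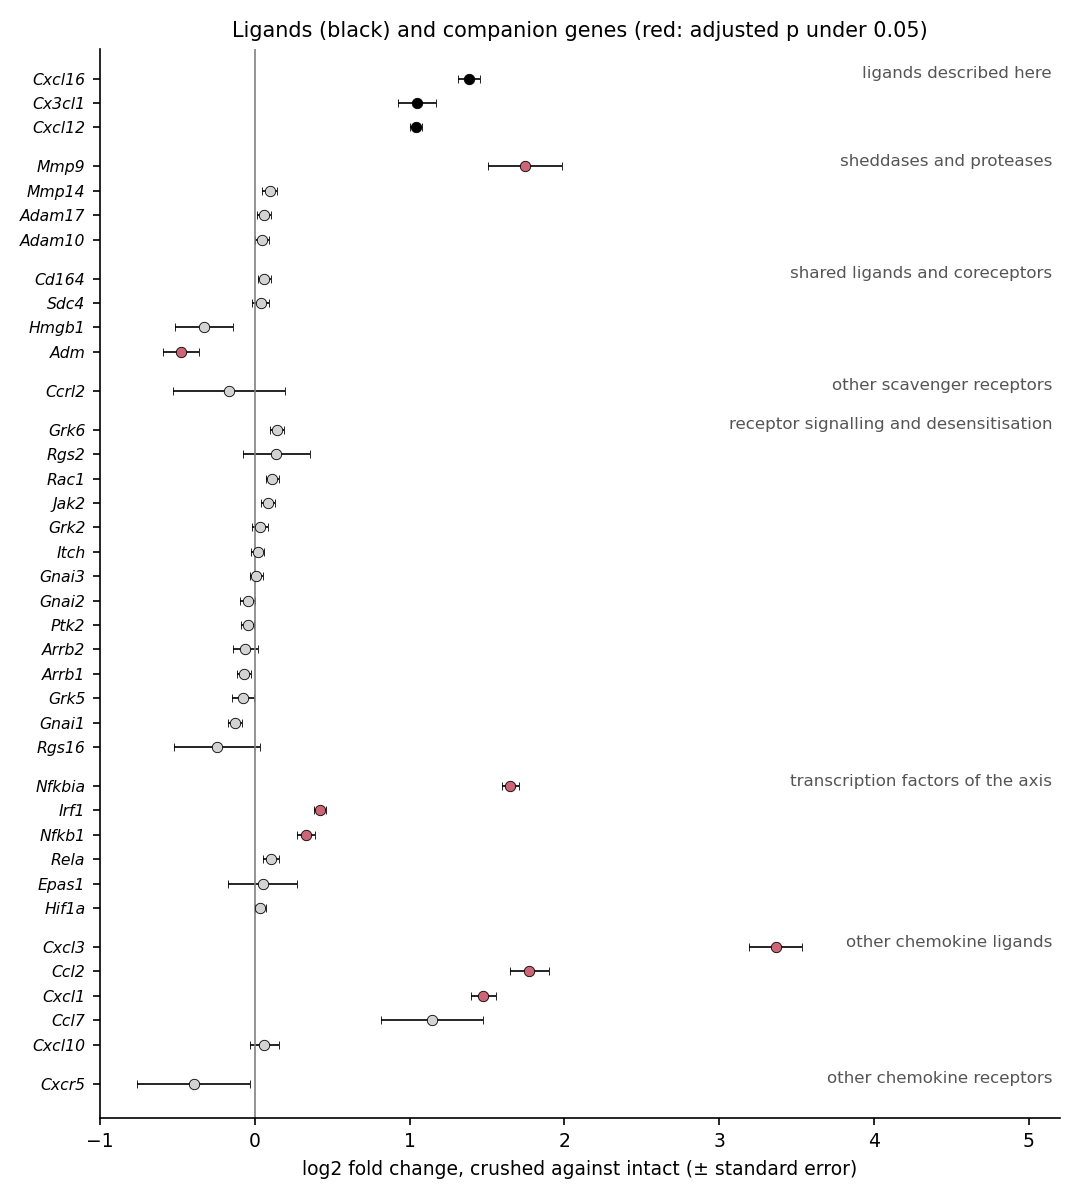
Log2FC of crushed against intact nerves with its SE (horizontal axis) for the 3 ligands (black, a description without a test) and the companion genes described here by list (red for an adjusted p under 0.05, grey otherwise). The ligands lie between 1.04 and 1.38, and the 14 signalling genes lie between -0.25 and 0.14.

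The genomic neighbours were examined within 50 kb of each member on Rnor_6.0. Zmynd15 (chromosome 10, 57064482 to 57071096) overlaps the first bases of Cxcl16 by 119 bases and, per RefSeq, lies on the other strand. It had 40, 29 and 35 reads in the intact group against 86, 63 and 85 in the crushed group, and its log2FC was 1.11 (SE 0.210, adjusted p = 0.0169). Whether reads were counted by strand is not given in the sources used here, so reads of Cxcl16 and Zmynd15 over the shared bases cannot be told apart. The other tested neighbours of Cxcl16 did not pass, with Arrb2 at -0.06 (adjusted p = 0.759) and Med11 at -0.20 (adjusted p = 0.504). Ccl17 and Ccl22, chemokine genes that flank Cx3cl1, were at 0 in all nerves, and its neighbours Coq9 and Ciapin1 both had log2FCs of 0.03. Cxcr6 lies over its whole 1056 bases inside Fyco1, a gene of the other strand with 2535 to 2875 reads a nerve. No gene lay within 50 kb of Cxcl12, Cxcr4 or Ackr3.

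The genes with the most similar profile over the 6 nerves were ranked by the Euclidean distance between log2 CPM profiles, each centred on its own mean. For Cxcl12 they were Tnfaip3, which encodes the NF-kB inhibitor A20, at a distance of 0.161, Nfkbie, another inhibitor of NF-kB, at 0.223, and Rsad2, an antiviral enzyme induced by interferon, at 0.262, against a median of 1.299 over all genes tested. For Cxcl16 they were Cp (ceruloplasmin), at 0.215, Cxcl1 at 0.287 and a copy of Metazoa_SRP at 0.313, against a median of 1.74. For Cx3cl1 they were Rps29, a ribosomal protein gene, at 0.229, the same copy of Metazoa_SRP at 0.301 and AC110474.1 at 0.324, against a median of 1.38. Metazoa_SRP belongs to a repeated family, so its reads could be split between copies. It was scarce, at 0.706 CPM in intact and 1.68 CPM in crushed nerves. AC110474.1 was scarcer still, at 0.222 and 0.466 CPM, and the SE of its log2FC was 0.357. Distances of genes at such levels are uncertain. The distances between ligands were 0.496 for Cxcl12 and Cxcl16, 0.430 for Cxcl12 and Cx3cl1 and 0.470 for Cxcl16 and Cx3cl1. Since no ligand was among the 3 nearest genes of another, these are larger by construction. The profiles also carry the difference between groups on which the members were chosen. For each ligand a small distance thus partly restates a similar log2FC. Among the genes nearest Cxcl12, the log2FC was 0.97 for Tnfaip3, 1.01 for Nfkbie and 0.88 for Rsad2. Among those nearest Cxcl16, it was 1.49 for Cp, 1.48 for Cxcl1 and 1.25 for Metazoa_SRP. Beside Cx3cl1, Rps29 had 0.89 and AC110474.1 had 1.05. Shared regulation was not tested.

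The values of the 3 ligands were recomputed under each other setting. Cxcl12 ranged from 1.02 to 1.06 and Cxcl16 from 1.301 to 1.43 in log2FC. Cx3cl1 had the widest range, from 0.93 without intact nerve 3 to 1.18 without intact nerve 1, the intact nerves with its lowest and highest level.

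**Figure D5:**
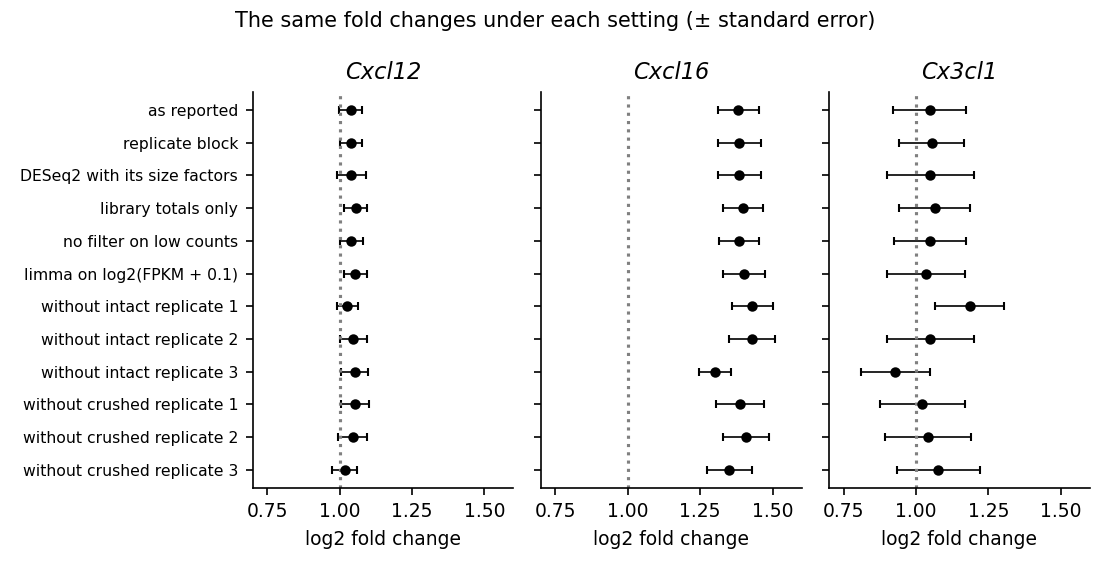
Log2FC with its SE (horizontal axis) of Cxcl12, Cxcl16 and Cx3cl1 as reported and under each of 11 other settings, with a dotted line at the study's limit of 1. Cxcl12 and Cxcl16 stay above the line in every setting shown, and Cx3cl1 falls to 0.93 without intact replicate 3.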

How the data were processed

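RNA of 3 crushed and 3 intact sciatic nerves was sequenced. The authors deposited 1 table with raw read counts per Ensembl gene and nerve and with FPKM values, which divide those counts by gene length and library total. Per the labels, the submitters' processing notes name HISAT2, StringTie 1.3.0 and the build Rnor_6.0, without a role for each. The counting program and strand setting are not given in the sources used here. The 12 value columns were matched to nerves by sample title, and 0 others were present.

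Counts were fitted with edgeR 4.0.16 (limma 3.58.1, R 4.3.3): TMM normalization, edgeR's expression filter, quasi-likelihood test, all 6 nerves, no replicate block, p adjusted by Benjamini-Hochberg over the 12393 genes tested. FPKM served only for levels between genes and, in limma, on log2(FPKM + 0.1). Other settings were DESeq2 1.42.0, library totals, no filter, a replicate block, an adjusted p limit and each nerve left out. Intervals are exact (Clopper-Pearson, scipy 1.17.1). Each nerve counted as 1 sample. Replicates differed by more than sampling noise (chi-square per degree of freedom 3.27 to 11.8), which does not show that they came from separate rats. The p-values set the difference between groups against the spread between these nerves. Promoters are from RefSeq (GRCr8), whose coordinates were not mixed with those of the table.

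The members and lists were chosen with earlier results of these data known. Genes named were the 7 members, the 3 nearest profiles of each tested member, and of each companion list the called genes or, with none called, its 2 highest in FPKM. Other genes of a list, the neighbours and the checks were named after their values were seen. Grk2 and Grk3 were looked up by their older names. No protein sequence was used here. Some genes of the lists are counted but not reported by name or value.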

Additional observations from a re-analysis of the deposited data

How the results depend on the processing

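The 3 ligands kept their direction under all other settings run, and 3 members were called in each of them except without intact replicate 3, where 2 were called because Cx3cl1 fell to 0.93. The members were chosen on this contrast in the same libraries, so nothing is read from the counts of members called here. Leaving out each nerve in turn gave log2 fold changes from 1.02 to 1.05 for Cxcl12, 1.301 to 1.43 for Cxcl16 and 0.93 to 1.18 for Cx3cl1. The number of companion genes called was 5 at the fold limit in every fit and 9 at an adjusted p under 0.05 with no fold limit, since that limit admits small changes. At the adjusted limit the fits that left out a nerve gave 7 to 8. With the replicate number as a block the log2 fold changes were 1.04, 1.39 and 1.05 for Cxcl12, Cxcl16 and Cx3cl1, 3 members and 5 companion genes were called at the fold limit, and the call of Adm was lost. The labels do not say that a number marks one rat, and deviations of same-numbered nerves correlated at -0.0066, -0.0076 and 0.0673 across genes, which are not independent replicates. Scaling by library totals gave 1.06, 1.40 and 1.06. The receptors had 0 to 6 reads a nerve, and no comparison of their levels between the groups was made. The cause of their low counts was not tested.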
